A study of Mus musculus with 6 samples.

Results

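The genes *Dux*, *Zscan4c*, *Zscan4d*, *Zscan4f* and *Zfp352* were examined in peak lists from ChIP-seq of ZFP57 and KAP1 in mouse embryonic stem (ES) cells. These 5 genes, of 22367 protein-coding genes annotated, belong to the set expressed in 2-cell embryos and in the rare 2-cell-like cells of ES cell cultures. Every peak that overlapped the gene body, or the 50 kb on either side of it in the mm9 assembly, was taken. This gave 83 of the 123233 peaks in the 4 lists.

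The lists came from 2 hybrid ES cell lines of reciprocal crosses between the mouse strains JF1 and B6. The mother was JF1 and the father B6 for JB1, and the parents were exchanged for BJ1. Each line gave 1 ZFP57 library and 1 KAP1 library, so no value below has a replicate error and no test was possible. The lists carry positions only, without read numbers, peak heights or *P*-values. Whether the members were expressed was not measured, and the cell type label could not be checked against marker genes. Reads of both parental strains were placed on mm9, which is the B6 sequence, so the number of *Dux* or *Zscan4* copies in JF1 is not known from these files. The lists differ in size, with 10667 ZFP57 peaks in JB1 against 1318 in BJ1, and 38713 KAP1 peaks in JB1 against 72535 in BJ1. The read depth behind them is unknown. A gene without a peak in the short BJ1 ZFP57 list is therefore a gene at which none was called, and cannot be told apart from a gene at which the library was too weak to give one.

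ZFP57 is a zinc finger protein that binds a short methylated motif, TGCCGC, and recruits KAP1 (also named TRIM28). KAP1 in turn brings the histone methyltransferase SETDB1, and the complex keeps imprinted loci methylated and many endogenous retroviruses silent. DUX is a double homeodomain transcription factor that switches on genes of the 2-cell stage, the *Zscan4* cluster and *Zfp352* among them. ZSCAN4 proteins are SCAN-domain zinc finger proteins linked to telomere maintenance in ES cells, and *Zfp352* encodes another zinc finger protein of the early embryo. KAP1 is known as a repressor of the 2-cell-like state.

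The ZFP57 peaks at the members hold at most 2 copies of the motif each. The sequence around these copies is shown here because the peaks at *Dux*, *Zscan4c*, *Zscan4d* and *Zscan4f* are described by it below. Each stretch has 66 bases of mm9, read 5′ to 3′ on the strand that carries TGCCGC, which is in capitals. The 2 stretches at *Dux* are on the minus strand, at chr10:57687532-57687597 in the coding exon of *Dux* and at chr10:57695211-57695276 in the repeated sequence upstream of it. Those at the *Zscan4* genes are at chr7:11618985-11619050 on the plus strand for *Zscan4c*, chr7:11792016-11792081 on the plus strand for *Zscan4d* and chr7:12020237-12020302 on the minus strand for *Zscan4f*. The annotation places all 3 of the latter between genes.
Dux, coding exon: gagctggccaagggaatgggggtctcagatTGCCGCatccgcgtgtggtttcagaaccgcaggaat
Dux, upstream copy: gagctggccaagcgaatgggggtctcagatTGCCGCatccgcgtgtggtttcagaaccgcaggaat
Zscan4c: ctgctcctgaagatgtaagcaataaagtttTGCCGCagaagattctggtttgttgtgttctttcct
Zscan4d: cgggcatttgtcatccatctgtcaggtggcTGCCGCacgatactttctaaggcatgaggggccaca
Zscan4f: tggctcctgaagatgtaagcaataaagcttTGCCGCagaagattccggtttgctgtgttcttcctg
The pair at *Dux* differs at 1 of 66 bases (G13C, counted from 1 at the 5′ end, coding exon first). The *Zscan4c* and *Zscan4f* stretches are identical at 58 of 66 bases although they come from separate peaks, and the *Zscan4d* stretch is another sequence.

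*Dux* was the only member whose gene body lay under a peak, and it lay wholly under a peak of all 4 lists. Of all genes, 7.37% had a JB1 ZFP57 peak over the gene body, 2.00% a BJ1 ZFP57 peak, 18.9% a JB1 KAP1 peak and 39.1% a BJ1 KAP1 peak, and 1.22% had a peak of all 4 lists. The gene is annotated on the minus strand at chr10:57685047-57688454 (ENSMUSG00000058537.2).

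The *Dux* peaks were among the widest of their lists. In JB1 the ZFP57 peak covered 28800 bp (chr10:57669451-57698250) and was the 12th widest of its list. In BJ1 the ZFP57 peak covered 15450 bp (chr10:57682801-57698250) and was the 9th widest of its much shorter list. The KAP1 peaks covered 29700 bp in JB1 (chr10:57668551-57698250) and 29100 bp in BJ1 (chr10:57669151-57698250). The median peak was 450 bp wide in both ZFP57 lists and 600 bp in both KAP1 lists. All 4 peaks ended at the same base upstream of *Dux*, 9.80 kb from its start, and they differed only at their downstream end. There the JB1 ZFP57 peak ran 13350 bp further than the BJ1 ZFP57 peak.

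**Figure D1:**
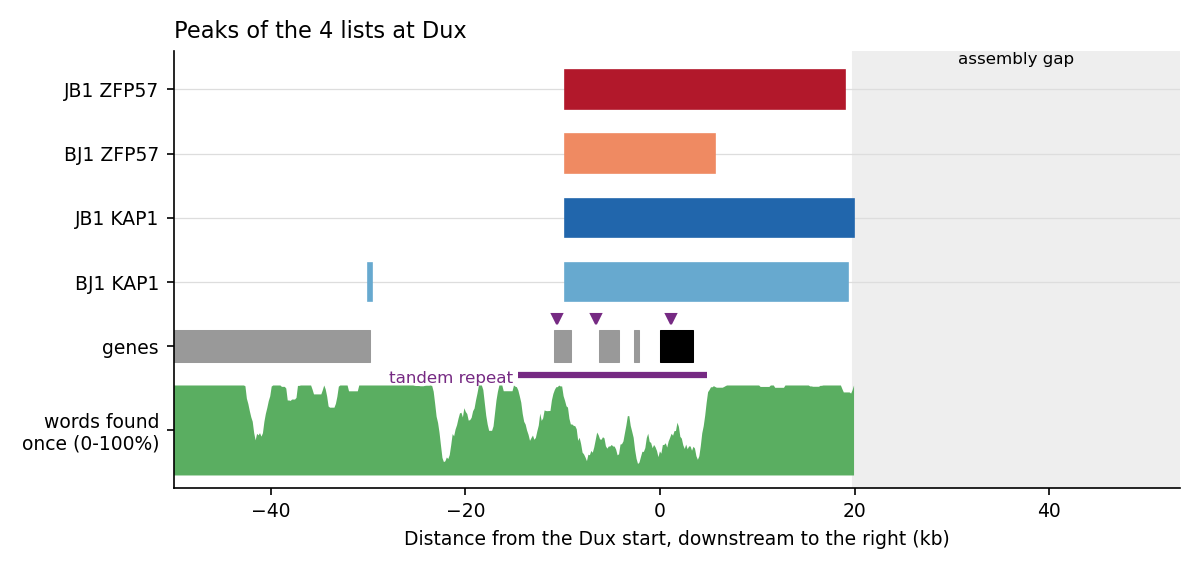
Peaks at *Dux* in the 4 lists (coloured bars), annotated genes (*Dux* in black, others in grey), alignments of the longest *Dux* coding exon (triangles) and the tandem repeat (purple line), against the distance from the *Dux* start in kb. The green area is the share of 50-base words found once in mm9, averaged over 7 windows of 150 bp, and grey shading marks the assembly gap. All 4 peaks start at -9.8 kb, and the BJ1 ZFP57 peak ends at 5.7 kb while the other 3 run to between 19.0 and 19.9 kb, next to the gap.

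The 3 longer peaks ended downstream next to an unsequenced stretch. There mm9 has a gap of 86000 bp (chr10:57582614-57668613). The JB1 ZFP57 peak began 837 bp from the gap and the BJ1 KAP1 peak 537 bp from it, while the first 150 bp window of the JB1 KAP1 peak touched the gap itself. The BJ1 ZFP57 peak began 14187 bp from it. What lies inside the gap was not measured, so the true extent of the 3 longer peaks on that side is unknown.

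On the upstream side *Dux* is part of a tandem repeat of 19447 bp (chr10:57683590-57703036), found by aligning the locus to itself. The longest repeated pair had 6795 bp at 96.2% identity, one copy lying 7708 bp from the other. Each of the 4 peaks covered 75.4% of the repeat and left the same 4786 bp at its upstream end uncovered. The BJ1 ZFP57 peak began 789 bp beyond the downstream end of the repeat, so it was confined almost wholly to the repeat, whereas the JB1 ZFP57 peak went 14139 bp beyond it. The longest *Dux* coding exon (700 bp) matched mm9 at 3 places. The first is *Dux* itself, the second has 99.0% identity (chr10:57694658-57695357) and both lay under all 4 peaks. The third has 84.1% identity (chr10:57698697-57699381, within *Gm4981*) and lay 447 bp outside the end of every peak.

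Repeated sequence limits how reads can be placed here. The reads had 50 bases, so the share of 50-base words that mm9 holds only once was counted as a measure of where a read has a single place. In the *Dux* gene body 41.8% of words were found once, and in the BJ1 ZFP57 peak 40.7%. The share was 68.0% in the JB1 ZFP57 peak, 68.6% in the JB1 KAP1 peak and 68.0% in the wide BJ1 KAP1 peak, and 78.5% over the sequenced bases of the window. A further 33567 bp of the window are gap and hold no words. In the 13350 bp by which the JB1 ZFP57 peak exceeded the BJ1 peak, 99.4% of words were found once. The difference between the lines in ZFP57 peak width thus lay in sequence found mostly once in assembled mm9, and the common part lay almost wholly in the repeat. How many copies of either part the cells hold was not measured. The part of read placement, of library strength and of the line in this difference was not tested. How the aligner handled reads with several places is not given in the sources used here. Library strength and line cannot be told apart with 1 ZFP57 library per line and no read numbers.

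Other annotated genes shared the peaks. *4933403O03Rik* and *Gm10807*, protein-coding predictions inside the repeat, lay under all 4 peaks, and *Gm4981* was covered at its downstream end. *Gcc2*, which encodes a golgin of the trans-Golgi network, begins 29.8 kb from *Dux* and had a single BJ1 KAP1 peak of 450 bp over its annotated start (chr10:57718051-57718500). All its 50-base words were found once, and it had no JB1 counterpart.

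Both TGCCGC copies within the ZFP57 peaks at *Dux* lay in the repeat, 7679 bp apart and in all 4 peaks. The first is in the stretch of the coding exon that encodes a homeodomain, and the second is its counterpart in the upstream copy, as printed above. Given their width, the peaks were not rich in the motif. Tiles of 15450 bp across mm9 held TGCCGC in 52.3% of cases and held at least 2 copies in 24.9%, and tiles of 28800 bp held at least 2 copies in 45.3%. The sequence by which the JB1 ZFP57 peak extended beyond the BJ1 ZFP57 peak had no TGCCGC.

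None of the *Zscan4* genes lay under a peak of any list. Around them KAP1 peaks were frequent in both lines, and ZFP57 peaks were called in JB1 alone. *Zscan4c* (chr7:11591071-11595896, plus strand, ENSMUSG00000054272.4), *Zscan4d* (chr7:11746992-11751497, minus strand, ENSMUSG00000090714.1) and *Zscan4f* (chr7:11983264-11988090, plus strand, ENSMUSG00000070828.3) are in a cluster of near-identical genes. Their promoters show how close the copies are, so the sequence just upstream of the *Zscan4c* start and the aligned sequence of the other two is printed with capitals at the bases that differ from *Zscan4c*. The stretches are chr7:11590821-11591070 (plus strand), chr7:11751532-11751780 (minus strand, a little upstream of the annotated *Zscan4d* start) and chr7:11983015-11983263 (plus strand).
Zscan4c promoter: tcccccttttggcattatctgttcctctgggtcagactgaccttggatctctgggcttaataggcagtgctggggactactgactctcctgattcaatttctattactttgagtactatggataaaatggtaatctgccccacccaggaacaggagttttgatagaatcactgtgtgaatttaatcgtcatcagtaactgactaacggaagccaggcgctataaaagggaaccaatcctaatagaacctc
Zscan4d promoter: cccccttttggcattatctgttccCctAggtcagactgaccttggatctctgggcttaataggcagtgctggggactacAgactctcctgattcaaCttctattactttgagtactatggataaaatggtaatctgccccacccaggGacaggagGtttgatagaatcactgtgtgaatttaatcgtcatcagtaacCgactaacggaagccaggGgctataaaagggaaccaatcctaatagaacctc
Zscan4f promoter: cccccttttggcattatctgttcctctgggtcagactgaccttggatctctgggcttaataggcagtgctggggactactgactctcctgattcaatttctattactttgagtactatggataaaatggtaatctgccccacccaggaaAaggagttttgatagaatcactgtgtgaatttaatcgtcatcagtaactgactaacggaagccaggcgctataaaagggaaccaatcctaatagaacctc
Over 249 aligned bases the *Zscan4d* promoter differed from that of *Zscan4c* at 8 bases and the *Zscan4f* promoter at 1. No peak of any list overlapped these stretches. In the gene bodies 3.62% of 50-base words at *Zscan4f*, 10.3% at *Zscan4c* and 51.7% at *Zscan4d* were found once in mm9. How reads with several places were treated is not given. A missing call over the genes or promoters cannot be told apart from reads that had no single place.

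The number of KAP1 peaks was high around all 3 genes in JB1. *Zscan4c* had 9 JB1 KAP1 peaks within 50 kb, *Zscan4d* 10 and *Zscan4f* 9, where the median gene had 1, and 2.57% of genes had at least 9. In the longer BJ1 KAP1 list the counts were 8, 12 and 7, where the median gene had 4 and 21.9% of genes had at least 7. Most of these peaks at *Zscan4c* and *Zscan4f* lay in repeated sequence. With only peaks that had at least 50% of their 50-base words found once in mm9, 1 JB1 KAP1 peak was left at *Zscan4c*, 6 at *Zscan4d* and 0 at *Zscan4f*, and in BJ1 1, 8 and 0 were left. The counts over all genes were not made with this limit. At least 1 KAP1 peak within 50 kb is common, being found for 69.8% of genes in JB1 and 94.4% in BJ1. All 5 members had one in each line.

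**Figure D2:**
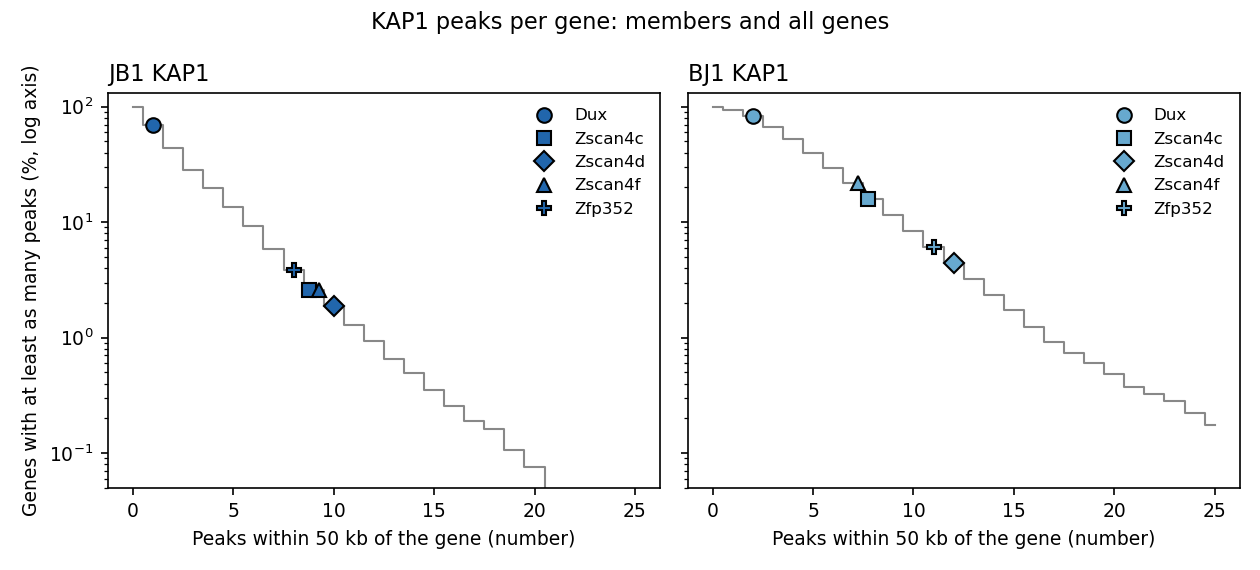
Share of all 22367 genes (percent, log axis) with at least a given number of KAP1 peaks within 50 kb (grey line), for JB1 (left) and BJ1 (right), with the 5 members placed at their own numbers (symbols for *Zscan4c* and *Zscan4f* are moved sideways slightly to be seen). The 3 *Zscan4* genes and *Zfp352* lie at 8 to 10 peaks in JB1 and 7 to 12 in BJ1, and *Dux* lies at 1 and 2.

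The KAP1 peaks around the 3 genes lay more than 13 kb from them. The nearest JB1 KAP1 peak was 22.1 kb from *Zscan4c*, 14.3 kb from *Zscan4d* and 18.7 kb from *Zscan4f*. In BJ1 the nearest was 13.2 kb, 14.3 kb and 13.1 kb away. KAP1 peaks covered 8.87% of the *Zscan4c* window in JB1 and 8.44% in BJ1, 11.6% and 11.1% of the *Zscan4d* window, and 5.44% and 4.29% of the *Zscan4f* window.

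At most of these positions KAP1 was called in both lines. Merging the overlapping peaks gave 33 regions around the *Zscan4* genes, of which 21 had KAP1 in both lines, 6 in JB1 alone and 5 in BJ1 alone, and the remaining 1 had ZFP57 alone. The share of such regions over the whole lists was not counted. *Zscan4f* had the smallest share in common, at 5 of 11 regions, against 7 of 9 for *Zscan4c* and 9 of 13 for *Zscan4d*. No *Zscan4f* peak had more than 21.7% of its words found once. Whether read placement had a part in its smaller share was not tested. Around the *Zscan4* genes 22 of 28 JB1 KAP1 peaks overlapped a BJ1 KAP1 peak and 22 of 27 BJ1 peaks overlapped a JB1 peak. Over all members 31 of 37 JB1 KAP1 peaks overlapped a BJ1 KAP1 peak and 32 of 40 BJ1 peaks overlapped a JB1 peak. Over the whole lists the shares were 85.9% and 45.3%.

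**Figure D3:**
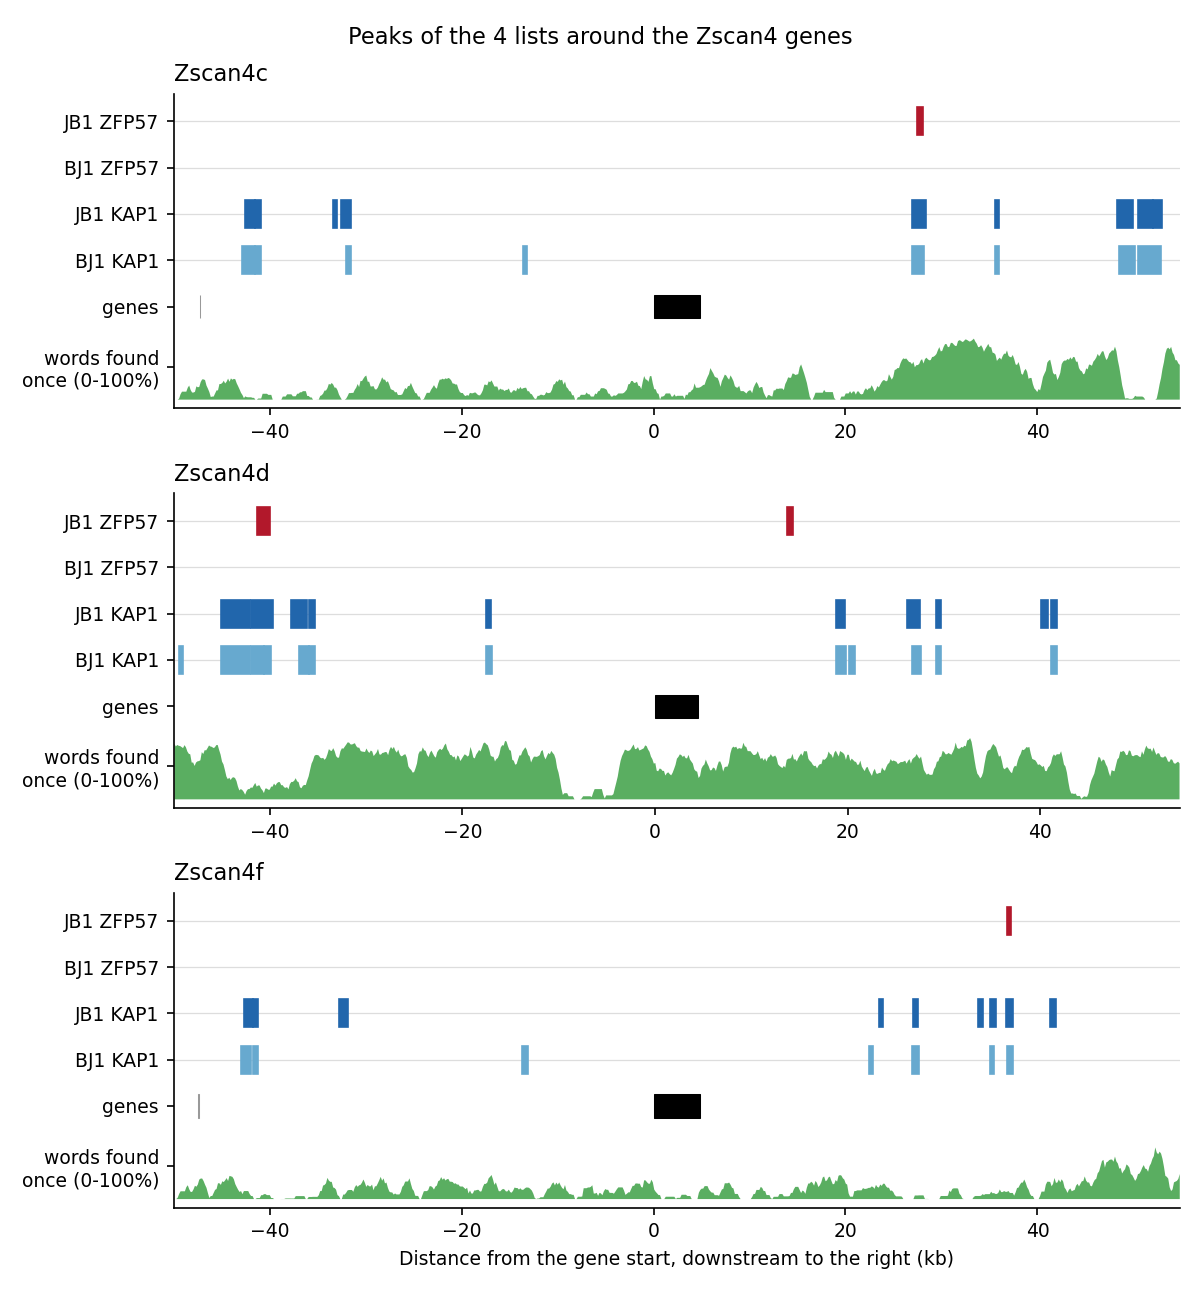
Peaks of the 4 lists within 50 kb of *Zscan4c*, *Zscan4d* and *Zscan4f* (bars), with the gene in black and other annotated genes in grey, against the distance from the gene start in kb. The green area is the share of 50-base words found once in mm9, averaged over 7 windows of 150 bp. No bar overlaps a gene, the BJ1 ZFP57 line is empty in all 3 panels, and *Zscan4c* and *Zscan4f* share KAP1 positions near -42 kb, -32 kb and -13.6 kb.

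ZFP57 was called at 4 places around the *Zscan4* genes in JB1 and at 0 in BJ1. A JB1 ZFP57 peak within 50 kb was found for 29.9% of genes, a BJ1 ZFP57 peak for 7.30%, and the combination of JB1 with no BJ1 peak for 24.7%, so what the 3 genes show is common among genes. The *Zscan4c* peak had 600 bp and lay 22.7 kb from the gene (chr7:11618551-11619150). The *Zscan4f* peak had 450 bp and lay 32.0 kb from the gene (chr7:12020101-12020550). *Zscan4d* had one peak of 1350 bp on its upstream side (chr7:11791501-11792850) and one of 600 bp, 9.19 kb downstream (chr7:11737201-11737800). The last was the only one of the 4 that overlapped no KAP1 peak and the only one without TGCCGC. The other 3 each held 1 TGCCGC and overlapped a KAP1 peak of both lines. In the whole JB1 ZFP57 list, 60.5% of peaks overlapped a JB1 KAP1 peak. TGCCGC was found in 50.3% of its peaks of 450 bp, 66.4% of those of 600 bp and 60.5% of those of 1350 bp, where tiles of mm9 of these widths held it in 2.69%, 3.54% and 7.58% of cases. The nearest BJ1 ZFP57 peak was the same one for all 3 genes, 481 kb from *Zscan4f*.

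The sequence around the motif at *Zscan4c* and *Zscan4f* was a dispersed repeat. The longest stretch that both share before the motif has 25 bases:
shared stretch: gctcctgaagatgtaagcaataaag
This stretch, followed by TGCCGC after at most 8 bases, was found at 4572 places in mm9 (both strands). A JB1 KAP1 peak lay over 98.3% of these places and a BJ1 KAP1 peak over 96.9%. A JB1 ZFP57 peak lay over 55.9% and a BJ1 ZFP57 peak over 4.09%. Nearly all places with this sequence thus had KAP1, as at *Zscan4c* and *Zscan4f*, and ZFP57 was called over far more of them in JB1 than in BJ1. Reads from one such place can resemble those from another, and the places are not independent observations.

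The merged peak regions around the *Zscan4* genes were then compared with the rest of mm9 over their whole length. Each region was aligned to mm9, and a copy was counted where at least 80% of it matched at 90% identity or more. Of the 33 *Zscan4* regions, 20 had at least 20 copies elsewhere and 2 had none. The region with the *Zscan4c* ZFP57 peak (chr7:11617951-11619450) was one of the latter, and that with the *Zscan4f* ZFP57 peak had 1 copy, so by this measure the whole regions were not repeated as the short stretch was. In 12 of the 20 regions at least 80% of the copies also lay under a JB1 KAP1 peak. The region that began 48.3 kb downstream of the *Zscan4c* start (chr7:11639401-11641200) had 902 copies, of which 98.7% had a JB1 KAP1 peak, 98.6% a BJ1 KAP1 peak and 44.7% a JB1 ZFP57 peak. Its neighbour (chr7:11641501-11644050) had 842 copies, of which 98.6% had a JB1 KAP1 peak and 73.9% a JB1 ZFP57 peak. Neither had a ZFP57 peak at *Zscan4c* itself. Upstream of *Zscan4c*, the region at chr7:11548201-11549550 had 183 copies, 96.7% with KAP1 in each line and 0 with ZFP57. A high copy number did not always go with KAP1. At *Zscan4c* a region with 235 copies (chr7:11557651-11558100) had a JB1 KAP1 peak over 1.70% of them and a BJ1 KAP1 peak over 1.28%, and one with 59 copies (chr7:11626651-11627100) over 6.78% and 10.2%. A region that began 40.1 kb downstream of the *Zscan4d* start (chr7:11710651-11711400) had 15593 copies, and 6.61% of them had a JB1 KAP1 peak. This region had a JB1 KAP1 peak and no BJ1 KAP1 peak at *Zscan4d*. All these regions were taken because they had a peak, and reads from one copy can resemble those from another. The share for other stretches of mm9 of the same widths was not counted.

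**Figure D4:**
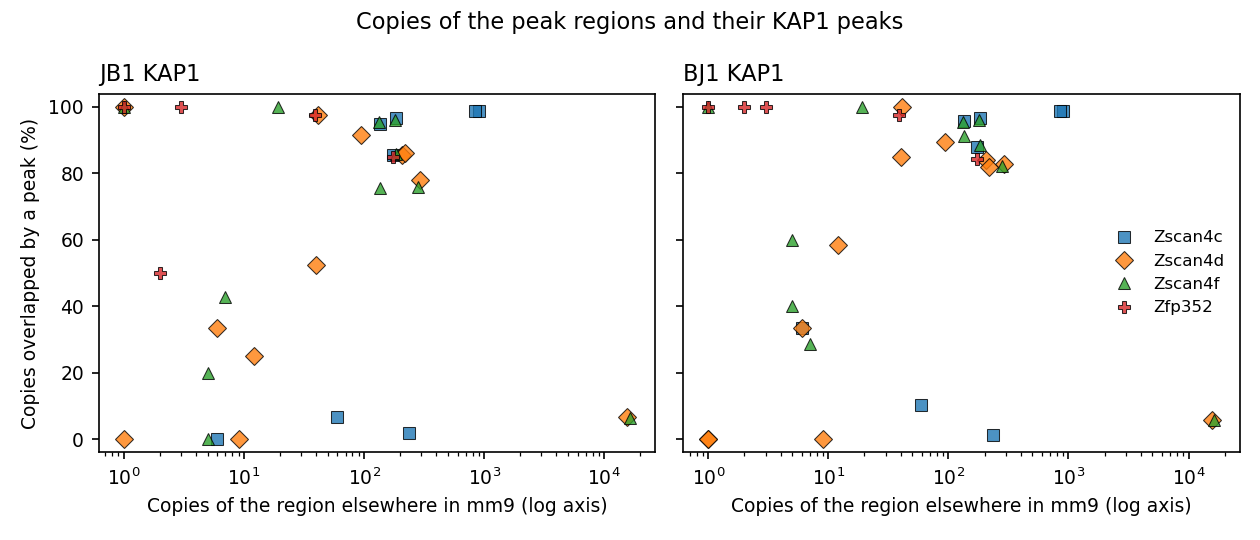
For each peak region around *Zscan4c*, *Zscan4d*, *Zscan4f* and *Zfp352* with a copy elsewhere in mm9 (points), the number of copies (log axis) and the percent of them overlapped by a KAP1 peak, in JB1 (left) and BJ1 (right). Of the 20 regions with 39 to 902 copies, 17 lie above 75% in JB1 and 18 in BJ1, and the regions with 15593 and 16428 copies lie at 6.61% and 6.40% in JB1.

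The lowest shares of words found once were at *Zscan4f* and *Zscan4c*. Words of 50 bases found once made up 16.3% of the *Zscan4f* window, 26.7% of the *Zscan4c* window and 56.6% of the *Zscan4d* window. In the gene bodies the shares were 3.62%, 10.3% and 51.7%. Within the peaks they were 9.32%, 16.0% and 42.8%. Over the whole lists, 29.4% of words in the JB1 ZFP57 peaks were found once, 50.9% in BJ1 ZFP57, 37.1% in JB1 KAP1 and 54.9% in BJ1 KAP1. Of the 59 peaks around the 3 genes, 7 held no word found once, and 41 held fewer than 50%. One pair of such peaks without any such word is at matching places of *Zscan4c* (chr7:11549551-11550150) and *Zscan4f* (chr7:11941501-11942100), in both lines. For these 2 regions the KAP1 calls cannot be assigned to one copy rather than the other from the sequence. The peaks at *Zscan4d* are the best placed, with 17.3% to 86.3% of words found once.

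The cluster holds further copies of the gene. A *Zscan4* coding exon of 983 bp aligned to 9 places on chromosome 7 between bases 11380148 and 12198905, with identities to that of *Zscan4d* of 95.5% or more, and 6 of the 9 places are annotated as a *Zscan4* gene. A peak of any list lay over 0 of the 9, with the limit on missing calls given above. The distance to the nearest peak was shorter at some of the other copies than at the 3 members. At *Zscan4b* the nearest KAP1 peak lay 499 bp from the exon in both lines and a JB1 ZFP57 peak lay 649 bp from it, and at *Zscan4e* the nearest KAP1 peak lay 528 bp from the exon in both lines. Each of the 9 had KAP1 peaks within 50 kb, from 4 to 15 in JB1 and from 6 to 17 in BJ1. For ZFP57, 8 of 9 had a JB1 peak within 50 kb and 0 of 9 a BJ1 peak. Neighbouring copies share some of these peaks.

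*Zfp352* (chr4:89885511-89892393, plus strand, ENSMUSG00000070902.4) had KAP1 peaks in both lines and no ZFP57 peak. It had 8 KAP1 peaks within 50 kb in JB1 and 11 in BJ1. As many were found for 3.84% of genes in JB1 and for 6.04% in BJ1. They lay on one side: all 8 JB1 peaks and 10 of the 11 BJ1 peaks were downstream of the gene. The nearest, at chr4:89893351-89893950, had the same edges in both lines and lay 0.958 kb from the end of the gene. The exception was a BJ1 peak upstream, 15.0 kb from the start (chr4:89869951-89870550). All 8 JB1 peaks overlapped a BJ1 peak, and of the 10 merged regions 8 had KAP1 in both lines and 2 in BJ1 alone.

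**Figure D5:**
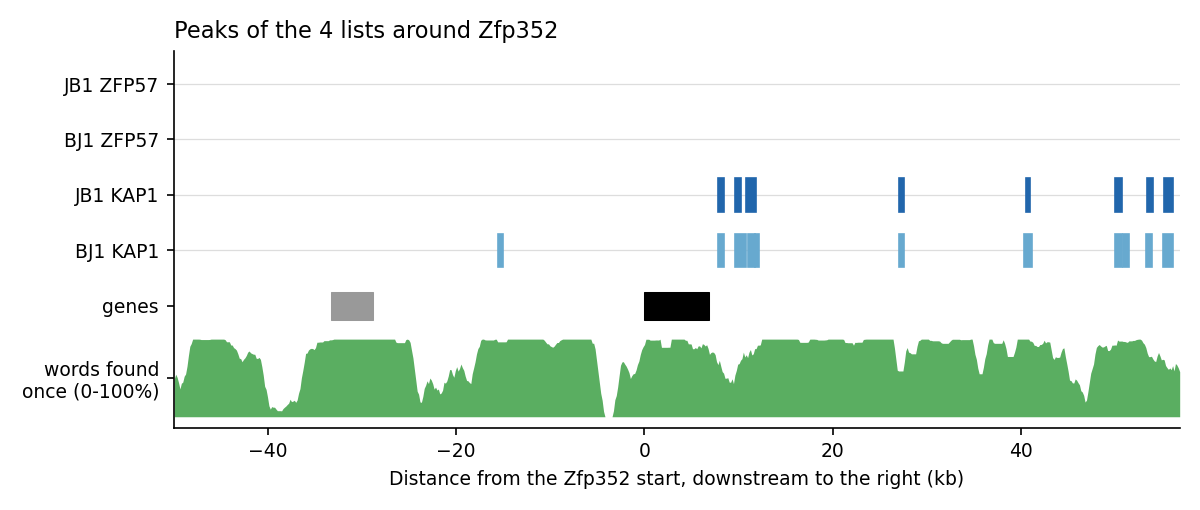
Peaks of the 4 lists within 50 kb of *Zfp352* (bars), with the gene in black and another annotated gene in grey, against the distance from its start in kb. The green area is the share of 50-base words found once in mm9, averaged over 7 windows of 150 bp. Both ZFP57 lines are empty, and apart from 1 BJ1 peak all KAP1 peaks lie downstream of the gene.

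Of the members, *Zfp352* had the highest share of words found once in the window, the gene body and the peaks. Words found once made up 82.2% of its window, 95.2% of its gene body and 76.1% of its peaks, against 78.5% (gap left out), 41.8% and 69.0% for *Dux*, and 17 of its 19 peaks had at least 50% of such words. Of its 10 regions, 5 had no copy elsewhere. The region nearest the gene had 173 copies, with a JB1 KAP1 peak at 85.0% and a BJ1 KAP1 peak at 84.4% of them. Its coding sequence is not single-copy over mm9. It aligned over 1650 bp at 95.2% identity to a place on chromosome 8 that is annotated as *Zfp353*, a member of the 2-cell list below. Only 1 TGCCGC lay within its KAP1 peaks, at chr4:89897258-89897263.

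The window edge decided one value. The nearest JB1 ZFP57 peak to *Zfp352* (chr4:89942401-89942850) lay 50008 bp from the gene and so just outside the window of 50 kb. Just inside the edge, the furthest peak of any member was a BJ1 KAP1 peak 49004 bp from *Zscan4d*. For *Zfp352* the nearest BJ1 ZFP57 peak was 2570008 bp away.

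Across the 5 members, JB1 ZFP57 was thus called at 5 places and BJ1 ZFP57 at 1, and the place common to both was *Dux*. With only peaks that had at least 50% of their words found once, an alternative chosen after seeing the data, BJ1 ZFP57 was left at 0 places, since its *Dux* peak had 40.7%. Of the 5 JB1 ZFP57 peaks 4 overlapped JB1 KAP1, and the single BJ1 ZFP57 peak overlapped BJ1 KAP1, as did 55.7% of the whole BJ1 ZFP57 list. In the whole lists 5.40% of JB1 ZFP57 peaks overlapped a BJ1 ZFP57 peak, and 43.6% of BJ1 peaks overlapped a JB1 peak. Motif couples, described as TGCCGC copies less than 38 bp apart, were absent: the 11 TGCCGC copies in the peaks of the members made 0 couples. The share of all peaks with a couple was not counted. The related hexamer GGCCGC occurred 12 times in the member peaks, and counting both hexamers gave 1 couple, in the KAP1 peaks of both lines at *Zscan4c*.

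Other genes of the 2-cell stage were counted from a list of 47, of which 29 were found by name in the annotation, at 30 places because *BB287469* is annotated at 2. Many are in clusters and share peaks, so the places are not independent. A JB1 ZFP57 peak lay within 50 kb of 16 of the 30 places, a BJ1 ZFP57 peak of 3, a JB1 KAP1 peak of 27 and a BJ1 KAP1 peak of 29. The shares over all genes were 29.9%, 7.30%, 69.8% and 94.4% in the same order. The median number of peaks per place was 4 for JB1 KAP1 and 7 for BJ1 KAP1, against 1 and 4 over all genes. A peak over the gene body was found at 1 of the 30 places in JB1 ZFP57, 0 in BJ1 ZFP57, 3 in JB1 KAP1 and 4 in BJ1 KAP1, where the shares over all genes were 7.37%, 2.00%, 18.9% and 39.1%.

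ZFP57 was called within 50 kb in both lines at *B020004J07Rik*, *Tdpoz3* and *Tdpoz4*. *Tdpoz3* and *Tdpoz4*, which encode proteins with TRAF and BTB domains, each had 1 BJ1 ZFP57 peak and 10 and 9 JB1 KAP1 peaks, and they are 28.5 kb apart, so that these counts overlap. *B020004J07Rik* had 1 ZFP57 peak in each line, and 12 KAP1 peaks in JB1 and 15 in BJ1. *Gm6763* was the only one of the 30 places without a peak of any list. *Zscan4b*, *Zscan4e* and *Zscan4-ps2*, of the same cluster as the members, had 15, 14 and 12 JB1 KAP1 peaks and 7, 1 and 2 JB1 ZFP57 peaks.

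Of 10 regulators of the 2-cell-like state found in the annotation, 1 had a ZFP57 peak within 50 kb (0 in JB1 and 1 in BJ1, against 29.9% and 7.30% of all genes). The activators *Dppa2* and *Dppa4*, which act upstream of *Dux*, had no ZFP57 peak within 50 kb in either line, and each had 5 BJ1 KAP1 peaks within 50 kb, where the median gene had 4, and 1 over the gene body, as had 39.1% of genes. In JB1 *Dppa2* had 1 KAP1 peak and *Dppa4* 0, none over a gene body. The genes are neighbours on chromosome 16 and their windows overlap, so they share peaks. Among 8 repressor genes, *Smchd1* alone had a ZFP57 peak, in BJ1 and over the gene body. A JB1 KAP1 peak was within 50 kb of 6 of the 8 and a BJ1 KAP1 peak of 7, near the shares over all genes of 69.8% and 94.4%. *Trim28*, the gene of KAP1 itself, had 1 JB1 and 3 BJ1 KAP1 peaks, and *Chaf1a*, a subunit of the chromatin assembly factor, had no peak of any list.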

How the data were processed

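ChIP-seq had been carried out with antibodies to ZFP57 and KAP1 in JB1 and BJ1 ES cells. The authors placed single-end reads of 50 bp on mm9 with Bowtie 0.12.7, with 2 mismatches permitted, and ran MACS on every library at a *P*-value threshold of 1e-05. CASAVA 1.8.2, SAMtools 0.1.18 and bedtools 2.14.3-1 are named in the submitters' processing notes. Deposited peak positions lie on a grid of 150 bp. How reads with several places were treated is not given in the sources used here. The 2 input libraries were not analysed here.

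Genes were taken from GENCODE M1 on mm9, and all protein-coding genes on chromosomes with peaks gave the background shares. Peaks overlapping by at least 1 bp were called shared. Words of 50 bases were counted on both strands of mm9 (every 10th word for the KAP1 lists as a whole), copies were found with BLAST 2.17.0, and motifs were matched exactly on both strands. Counting steps were tested on simulated data. The members and gene lists were chosen with earlier results of these data known. Genes named beside the members are those in their windows, those of the lists with ZFP57 in both lines or without a peak, and other genes of the *Zscan4* cluster and regulators, which were named after their values were seen. The alternatives were windows of 10 kb and 100 kb, peak midpoints, wide peaks only, stricter overlap, words of 36 bases and other motif settings.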

Additional observations from a re-analysis of the deposited data

How the results depend on the processing

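Of 61 alternative values, 40 were counts within 1.5 times the reported one. The other 21 are given here: counts beyond that, and the 5 word shares, which can only fall with a shorter word. Windows of 10 kb on either side left 2 JB1 ZFP57, 4 JB1 KAP1 and 5 BJ1 KAP1 peaks, at 2 members in each of these lists, *Dux* and one other. Windows of 100 kb gave 14 JB1 ZFP57, 75 JB1 KAP1 and 81 BJ1 KAP1 peaks. Keeping only peaks with at least 50% of their words found once, an alternative chosen after seeing the data, left 3 JB1 ZFP57, 0 BJ1 ZFP57, 15 JB1 KAP1 and 21 BJ1 KAP1 peaks, so that 0 members had BJ1 ZFP57. With words of 36 bases, the share found once in the peaks was 63.5% for *Dux*, 12.2% for *Zscan4c*, 31.3% for *Zscan4d*, 5.66% for *Zscan4f* and 62.4% for *Zfp352*. Counting GGCCGC with TGCCGC gave 23 motifs in the peaks and 1 couple. Joining abutting peaks, also chosen after seeing the data, changed no count by over 1.5 times. No paired analysis was possible because each line and antibody had 1 library.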
